A study of Mus musculus with 16 samples.

Results

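E2f4 was called in 379 places of the liver genome where neither the KO nor the WT library had a called region of H3K4me2, out of 2105 merged E2f4 regions on chromosomes 1 to 19. These regions were chosen by a measured value, the authors' called H3K4me2 regions. Overlapping peaks of the 4 E2f4 lists were merged at 1 bp, and a merged region was kept when no H3K4me2 region of KO or WT touched it. The other 1726 regions overlapped H3K4me2 and serve below as the comparison. The data are chromatin immunoprecipitation and sequencing (ChIP-seq) peak lists from mouse liver taken 40 h after partial hepatectomy, an operation that drives the remaining hepatocytes into the cell cycle. KO mice carried Arid1a Fl/Fl with Alb-cre, a Cre recombinase driven by the albumin promoter, which is active in hepatocytes. The loss of Arid1a in each cell type of the liver was not measured here. WT mice carried the same floxed alleles without Cre, and all mice were on a C57/B6 and 129 mix and at postnatal day 90. There were 2 E2f4 libraries per genotype (antibody sc-866x) and 1 library per genotype for each histone mark, and the labels do not say whether replicates came from separate animals. Per the labels' protocol, minced frozen tissue was crosslinked for 20 min in 1% formaldehyde before the isolation of hepatocytes. In chromatin from a tissue, a signal present in few cells and a weak signal present in all of them cannot be told apart.

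The transcription factor E2f4 acts mainly as a repressor. With the retinoblastoma-like proteins and the MuvB core it forms the DREAM complex, which holds cell cycle genes silent in resting cells. Its known sites lie close to gene starts, in promoters whose nucleosomes carry H3K4me2, a methylation of histone H3 found at active and poised promoters and enhancers. H3K27ac, an acetylation of the same histone, marks those that are active. Arid1a is a subunit of SWI/SNF, a complex that moves nucleosomes. A called E2f4 peak without H3K4me2 over it is not within the marked chromatin in which this factor is usually described, though it can lie close beside it.

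The promoters of 4 genes to which the results return are shown first. P4hb and Khsrp were called in both WT lists, Vkorc1l1 was among the 3 strongest members of WT replicate 1 found in 1 list, and the called region of Gucy1b1 holds an E2F motif. The sequences are RefSeq promoters of assembly GRCm38.p6, 250 bases before to 50 bases after a gene start, 5′ to 3′ on the gene's strand. Capitals mark the letters of an E2F motif on either strand, where they occur. The forms searched were TTCCCGC and its variants, which read TTGGCGC in one case, TTCGCGC in another and TTGCCGC in the last. P4hb lies at chr11:120573204-120573503 on the minus strand, Khsrp at chr17:57031458-57031757 on the minus strand, Gucy1b1 at chr3:82074662-82074961 on the minus strand and Vkorc1l1 at chr5:129941859-129942158 on the plus strand.
P4hb: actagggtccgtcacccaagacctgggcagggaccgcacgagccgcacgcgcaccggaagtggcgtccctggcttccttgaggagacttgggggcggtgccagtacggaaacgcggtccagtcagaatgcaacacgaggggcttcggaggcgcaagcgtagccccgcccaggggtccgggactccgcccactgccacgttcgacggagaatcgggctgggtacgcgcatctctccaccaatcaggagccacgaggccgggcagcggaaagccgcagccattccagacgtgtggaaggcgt
Khsrp: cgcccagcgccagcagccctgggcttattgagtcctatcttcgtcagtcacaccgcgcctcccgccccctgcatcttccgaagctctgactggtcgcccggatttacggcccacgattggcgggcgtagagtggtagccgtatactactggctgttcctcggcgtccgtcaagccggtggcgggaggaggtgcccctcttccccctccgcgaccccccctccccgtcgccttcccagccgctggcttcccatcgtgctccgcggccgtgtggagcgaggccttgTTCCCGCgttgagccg
Gucy1b1: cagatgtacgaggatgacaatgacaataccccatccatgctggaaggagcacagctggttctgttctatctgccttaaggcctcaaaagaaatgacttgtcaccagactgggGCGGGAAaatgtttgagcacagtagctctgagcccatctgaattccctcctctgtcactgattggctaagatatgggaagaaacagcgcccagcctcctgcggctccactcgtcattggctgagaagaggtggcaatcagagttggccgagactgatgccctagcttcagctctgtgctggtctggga
Vkorc1l1: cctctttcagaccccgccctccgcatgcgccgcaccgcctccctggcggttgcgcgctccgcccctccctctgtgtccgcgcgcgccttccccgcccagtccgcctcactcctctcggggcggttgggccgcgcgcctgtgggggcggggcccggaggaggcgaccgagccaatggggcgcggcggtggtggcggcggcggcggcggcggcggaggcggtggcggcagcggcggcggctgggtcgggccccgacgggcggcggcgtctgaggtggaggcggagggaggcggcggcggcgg

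The 4 E2f4 lists gave unequal shares of these regions, and 1 WT library gave most of them. Outside H3K4me2 lay 56 of 281 peaks of KO replicate 1 (19.9%, exact binomial 95% interval 15.4 to 25.1) and 13 of 669 peaks of KO replicate 2 (1.94%, 1.04 to 3.30). In WT it was 272 of 1741 peaks of WT replicate 1 (15.6%, 13.9 to 17.4) and 46 of 1033 peaks of WT replicate 2 (4.45%, 3.28 to 5.90). The share was high in the first and low in the second replicate of either genotype, so the genotypes overlapped. The mean was 10.94 ± 12.72% in KO and 10.04 ± 7.898% in WT (SD, n = 2 each), a difference of 0.898 percentage points that was no larger than the spread between replicates (exact two-sided permutation test over libraries, p = 1). With 2 libraries against 2 the smallest p this test can give is 0.333. The number of peaks outside H3K4me2 averaged 34.5 in KO and 159 in WT (exact permutation p = 0.667). Without WT replicate 1 the number of regions was 116 and their share 9.77%, against 379 and 18.0% with all 4 lists. Without KO replicate 1 the difference between genotypes turned to -8.09 percentage points, and without WT replicate 2 to -4.74. When only E2f4 peaks whose −log10 q-value reached 5 were merged, 65 regions (4.79%) were outside H3K4me2. When every list was shortened to 287 peaks, the length of the shortest, 58 (12.6%) were. The lists hold no read totals, so the depth of each library is unknown, and the intervals given here cover counting error only.

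Nearly all of these regions were called once. Of the 379, 371 (97.9%) were in 1 list: 52 in KO replicate 1, 13 in KO replicate 2, 264 in WT replicate 1 and 42 in WT replicate 2. Another 8 regions (2.11%, 0.916 to 4.12) were in 2 lists, and 0 of 379 were in 3 or 4, which allows a share of up to 0.969%. Of the 1726 regions overlapping H3K4me2, 841 (48.7%) were in 2 or more lists and 549 (31.8%) in 3 or 4. Over all 2105 regions the share in 2 or more lists was 40.3%. The rule bears on this comparison, since a region merged from several peaks left the set when any of them touched H3K4me2. Of the 8 regions in 2 lists, 4 were in KO replicate 1 and WT replicate 1 and 4 in both WT lists, and 0 were in both KO lists. Without KO replicate 1 the count in 2 lists was 4, without WT replicate 1 it was 1 and without WT replicate 2 it was 5. Regions called in KO and in no WT list numbered 65 of 379 (17.2%) outside H3K4me2 and 46 of 1726 (2.67%) overlapping it, against 5.27% of all regions.

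**Figure D1:**
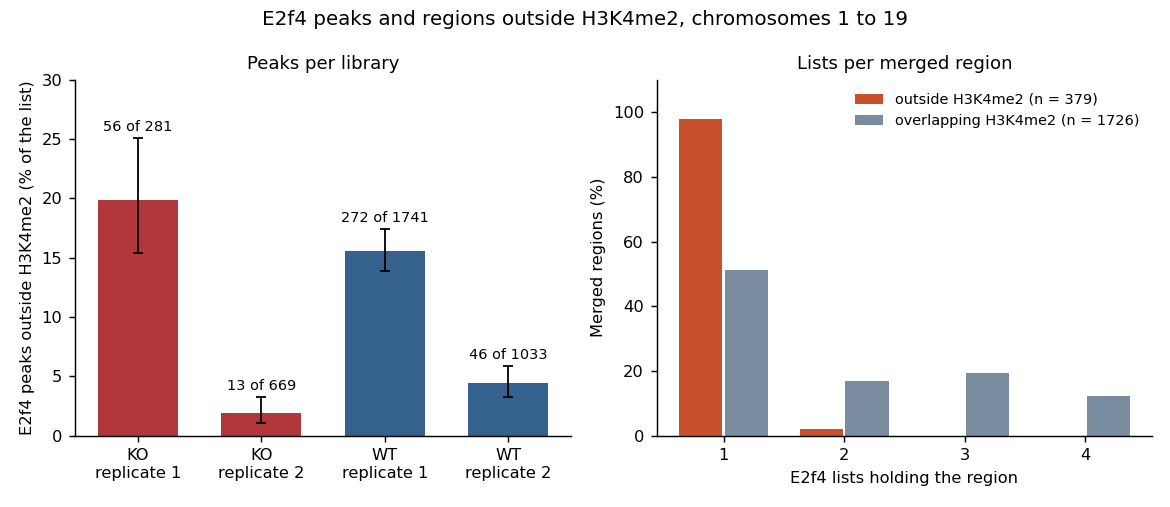
Left, the percent of each library's E2f4 peaks on chromosomes 1 to 19 that lay outside H3K4me2, with exact binomial 95% intervals and the counts (KO red, WT blue). Right, the percent of merged regions held by 1, 2, 3 or 4 lists, for the 379 regions outside H3K4me2 and the 1726 overlapping it. Of the regions outside, 97.9% stand at 1 list.

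Peaks outside H3K4me2 were also far from any peak of the other 3 libraries. The share overlapping one was 7.14% of outside against 98.2% of inside peaks in KO replicate 1, 0% against 93.6% in KO replicate 2, 2.94% against 55.4% in WT replicate 1 and 8.70% against 81.4% in WT replicate 2. The mean of these differences was -77.5 ± 19.1 percentage points (SD, n = 4 libraries), lower outside in 4 of 4 libraries (exact two-sided sign-flip permutation test over libraries, p = 0.125, the smallest that 4 libraries can give). This comparison was added to the planned ones. An overlap counts for both libraries that share it, so the 4 differences are not independent and the p is a description only. The rule also bears on them. A peak clear of H3K4me2 counted as overlapping when a peak merged with it touched H3K4me2, which takes shared peaks out of the outside class. Part of the difference is thus built in, by an amount that was not measured. The median distance from an outside peak to the nearest peak of another library was 867502 bp in KO replicate 1, 1155208 bp in KO replicate 2, 765837 bp in WT replicate 1 and 712219 bp in WT replicate 2. For peaks overlapping H3K4me2 it was 0 bp in each of the 4 libraries. A wider allowance added little, since 5 of 56, 0 of 13, 10 of 272 and 4 of 46 outside peaks, in the same order of libraries, had a peak of another library within 1000 bp.

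The outside peaks rested on few fragments. The number of fragments piled up at each summit and the background expected there were recovered from the deposited fold and p-value under an assumed formula that no source used here states, on which every fragment and background value rests. At the median, a peak outside against a peak overlapping H3K4me2 held 9 against 18 fragments in KO replicate 1, 9 against 31 in KO replicate 2, 8 against 16 in WT replicate 1 and 10 against 24 in WT replicate 2. Outside medians thus lay within a narrow range in all 4 libraries, near the lowest pileup that was called at all, which was 7, 8, 5 and 6 fragments. The difference averaged -13.2 ± 6.4 fragments (SD, n = 4, lower outside in 4 of 4 libraries, exact sign-flip permutation p = 0.125). Peaks of at most 10 fragments made up 83.9%, 84.6%, 91.2% and 65.2% of the outside peaks of KO replicate 1, KO replicate 2, WT replicate 1 and WT replicate 2, and 6.22%, 0.762%, 19.7% and 3.14% of the peaks overlapping H3K4me2. Ranked by −log10 q-value within their list, where 100 is the strongest peak, outside peaks had median percentiles of 13.2, 2.91, 18.9 and 7.26 and peaks overlapping H3K4me2 of 60.1, 51.1, 57.5 and 52.6. The mean difference was -44.8 ± 4.27 percentile points (SD, n = 4, exact sign-flip permutation p = 0.125). In the top 25% of a list, above percentile 75, stood 0 outside peaks of either KO library, 1 of WT replicate 1 and 0 of WT replicate 2. Many had the least width that was called: 36 of 56 outside peaks of KO replicate 1 were 146 bp wide, 7 of 13 of KO replicate 2 148 bp, and 145 of 272 of WT replicate 1 and 18 of 46 of WT replicate 2 144 bp.

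**Figure D2:**
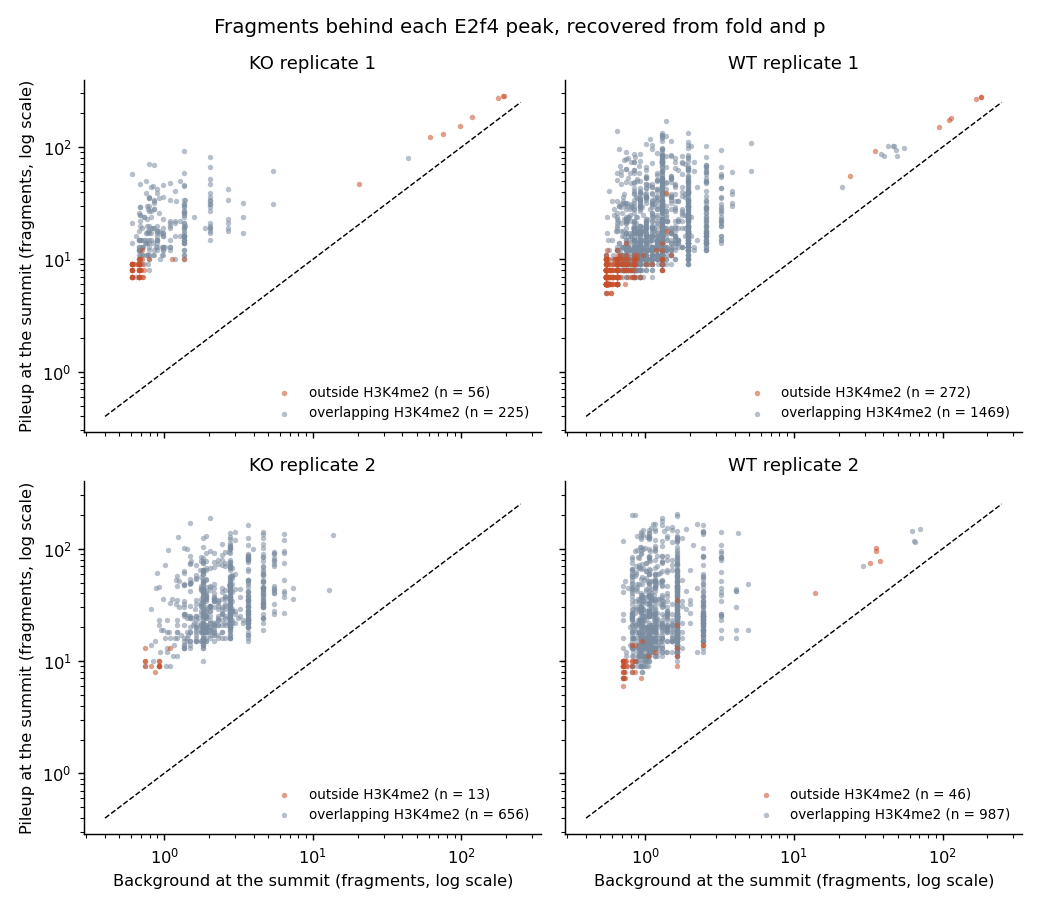
Fragments piled up at the summit of each E2f4 peak against the background expected there, both on log scales, for KO (left) and WT (right) libraries, with peaks outside H3K4me2 in orange and peaks overlapping it in grey. The dashed line marks equality. Outside peaks form a dense group at the lowest pileups and a second, sparse group at backgrounds of 13.8 to 192 fragments.

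A small second class stood apart by its background. In 16 of the 379 regions (4.22%) the background at a summit was 13.8 to 192 fragments, whereas no other outside peak had more than 2.44. Their 21 peaks had 40 to 286 fragments and a deposited fold of 1.48 to 2.80, below the lowest fold of the other outside peaks, 3.79. They included 5 of the 8 regions found in 2 lists, and 0 of the 16 overlapped H3K27ac. KO replicate 1 held 8 of them, KO replicate 2 held 0, WT replicate 1 held 8 and WT replicate 2 held 5. On chromosome 2 the region chr2:98662253-98662893 had a pileup of 285 on a background of 192 fragments in KO replicate 1 and 279 on 183 in WT replicate 1. Its neighbour chr2:98666547-98667307 had 274 on 177 in KO replicate 1 and 265 on 167 in WT replicate 1, with both summits at position 98666873, and another region, of WT replicate 1 alone, from 98665033 to 98665207, lay between them. On chromosome 9, chr9:35305236-35305548 in the long non-coding RNA gene Gm33838 had 286 on 191 in KO replicate 1 and 277 on 180 in WT replicate 1. On chromosome 12, chr12:3109871-3110076 had 153 on 98.1 in KO replicate 1 and 150 on 94.6 in WT replicate 1. These 4 regions make up all that KO replicate 1 and WT replicate 1 shared outside H3K4me2. The fifth, chr16:11144009-11144263 in Zc3h7a, had 55 on 23.8 fragments in WT replicate 1 and 78 on 38.3 in WT replicate 2. A group of 3 regions on chromosome 14, between 19415738 and 19418916, had 124 to 174 fragments, 2 of them in KO replicate 1 and 1 in WT replicate 1. In WT replicate 1 a region with 93 on 35.4 fragments, chr17:39848442-39848733, lay 240 bp from an end of Rn18s-rs5, annotated as a pseudogene of 18S ribosomal RNA, and 850 bp from H3K4me2. Of the regions overlapping H3K4me2, 7 of 1726 (0.406%) had a background over 10 fragments, 4 of them on chromosome 17 between 39843114 and 39848017. With the 16 left out, 363 regions remained, of which 3 (0.826%) were in 2 lists.

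Peaks outside and overlapping H3K4me2 were also set side by side among those of low pileup. Among peaks of at most 10 fragments on a background of at most 10, the outside and the overlapping class were of nearly equal size, 336 and 339 peaks. Of the 336 outside, 0 overlapped a peak of another library, which allows a share of up to 1.09%, against 40 of 339 (11.8%, 8.56 to 15.7) that overlapped H3K4me2. H3K27ac lay on 13 of the 336 (3.87%, 2.08 to 6.53) and on 316 of the 339 (93.2%, 90.0 to 95.7). Over 10000 bp from any gene end lay 225 of the 336 (67.0%) and 25 of the 339 (7.37%). The order was the same in each library for H3K27ac, with 0 of 47 outside against 13 of 14 overlapping peaks in KO replicate 1, 0 of 11 against 3 of 5 in KO replicate 2, 12 of 248 against 269 of 289 in WT replicate 1 and 1 of 30 against 31 of 31 in WT replicate 2. For overlap with another library, KO replicate 2 had 0 of 11 outside and 0 of 5 overlapping peaks, so no order could be read there. The 11.8% is mostly set by WT replicate 1, with 24 of 289, whereas KO replicate 1 had 10 of 14. The class has an upper limit only, so its pileups were not equal: the median was 8 fragments outside and 9 overlapping in KO replicate 1, 9 and 9 in KO replicate 2, 8 and 9 in WT replicate 1, and 9 and 9 in WT replicate 2. At exactly 8 fragments in WT replicate 1, H3K27ac lay on 0 of 67 outside and 59 of 63 overlapping peaks, and 42 of 67 and 10 of 63 were over 10000 bp from a gene end. At 6, 7, 9 and 10 fragments H3K27ac lay on 5.66%, 9.52%, 3.12% and 6.9% of outside peaks. On overlapping peaks it lay on 88.9%, 77.3%, 95.7% and 94.0%. Overlap with a peak of another library was 0 of 67 and 2 of 63 at exactly 8 fragments, and 0 of 29 and 11 of 100 at exactly 10. These classes were defined after the pileups had been seen, peaks are not replicates, and the values are given as a description without a test. The bearing of the rule on shared peaks, described above, holds here too.

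**Figure D3:**
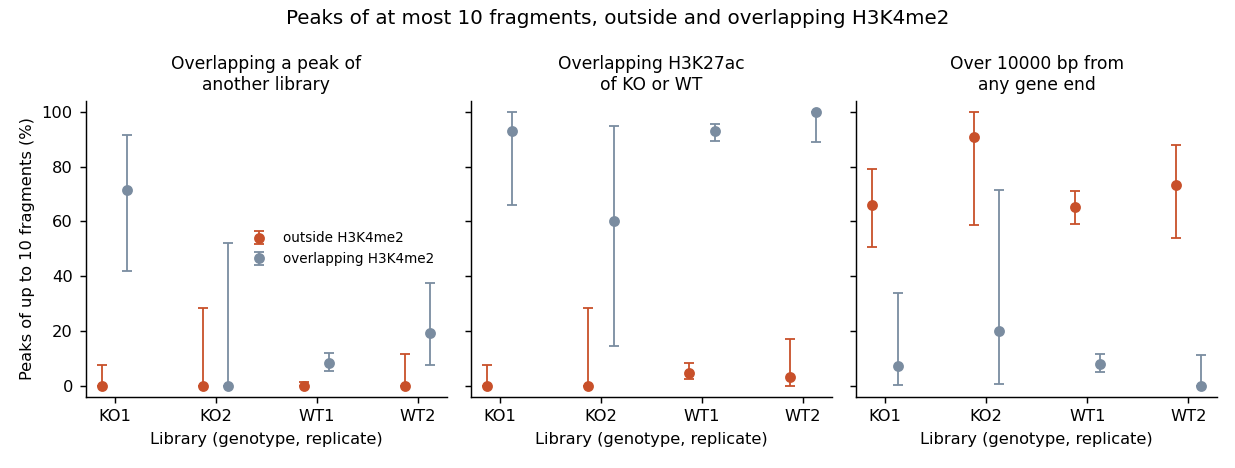
Peaks of at most 10 fragments at the summit and a background of at most 10, by library (KO left, WT right): the percent that overlap a peak of another library, that overlap H3K27ac of KO or WT, and that lie over 10000 bp from any gene end. Points are outside (orange) and overlapping (grey) H3K4me2, with exact binomial 95% intervals that cover counting error only. Outside peaks stand at 0% in the left panel in 4 of 4 libraries.

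Most regions outside H3K4me2 were distal. Distance was taken to the nearest outer end of any RefSeq gene, non-coding genes included. Of the 379 regions, 244 (64.4%, 59.3 to 69.2) lay over 10000 bp from any gene end, against 73 of 1726 (4.23%, 3.33 to 5.29) overlapping H3K4me2 and 15.1% of all regions. The median distance was 17917 bp outside and 0 bp overlapping. By library, the share of peaks over 10000 bp away was 66.1% outside against 2.22% overlapping in KO replicate 1, 84.6% against 2.90% in KO replicate 2, 63.2% against 3.54% in WT replicate 1 and 58.7% against 3.55% in WT replicate 2. The difference averaged 65.1 ± 11.6 percentage points (SD, n = 4), higher outside in 4 of 4 libraries (exact sign-flip permutation p = 0.125). Within 1000 bp of a gene end lay 28 outside regions (7.39%) and 1464 overlapping ones (84.8%), and 100 outside regions (26.4%) lay over 50000 bp away. The body of a gene held 170 of 379 outside regions (44.9%) and 1467 of 1726 overlapping ones (85.0%), and the nearest gene was protein-coding for 158 (41.7%) and 1486 (86.1%). The H3K4me2 itself was mostly not close by. Its nearest region lay between 23 and 1976540 bp away, with a median of 20490 bp, over 10000 bp away for 238 regions (62.8%) and within 1000 bp for 34 (8.97%).

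**Figure D4:**
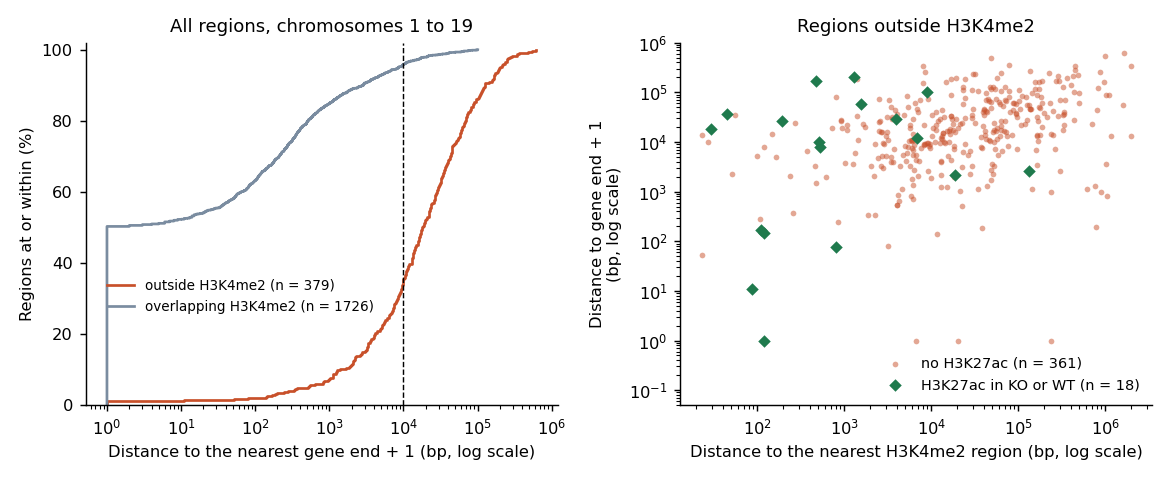
Left, the cumulative percent of merged regions against the distance to the nearest gene end plus 1 bp (log scale), outside and overlapping H3K4me2, with a dashed line at 10000 bp. Right, for the 379 outside regions, that distance against the distance to the nearest H3K4me2 region (both log scales), with the 18 regions that overlap H3K27ac as green diamonds.

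H3K27ac was called on few of these regions. It overlapped 18 of 379 (4.75%, 2.84 to 7.40) outside and 1660 of 1726 (96.2%, 95.2 to 97.0) overlapping H3K4me2, against 79.7% of all regions. Of the 18, 12 were covered in KO and 14 in WT: 8 in both, 4 in KO only and 6 in WT only. With 1 H3K27ac library per genotype these counts have no replicate check. None of the 18 was called by E2f4 in KO. The share of outside against overlapping peaks with H3K27ac was 0% against 97.3% in KO replicate 1, 0% against 96.8% in KO replicate 2, 6.25% against 96.1% in WT replicate 1 and 8.70% against 96.3% in WT replicate 2. The difference averaged -92.9 ± 4.9 percentage points (SD, n = 4, lower outside in 4 of 4 libraries, exact sign-flip permutation p = 0.125). Over the 69 outside regions called in KO, 0 had H3K27ac (allowing up to 5.21%), and 18 of the 314 called in WT did (5.73%, 3.43 to 8.91). Of the 18 acetylated regions 11 lay within 1000 bp of H3K4me2 and 7 farther away. H3K27ac overlapped 11 of the 34 regions with H3K4me2 within 1000 bp (32.4%, 17.4 to 50.5), and 7 of the 345 farther away (2.03%, 0.82 to 4.14). The share depended on the thresholds: it was 1.85% when H3K27ac regions had to reach a −log10 q-value of 5, and 10.4% when H3K4me2 regions had to.

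Just inside and outside the rule, values were as follows. The 3 members closest to H3K4me2 without touching it lay 23, 23 and 27 bp away: a region of KO replicate 1 with 9 fragments on chromosome 16 (21310401 to 21310546), the Gucy1b1 region of WT replicate 2 with 15 fragments, and a region of KO replicate 1 with 7 fragments on chromosome 10 (96588827 to 96588972). The 3 non-members with the least overlap touched H3K4me2 over 14, 42 and 45 bp. The first, at Hnrnpa3 on chromosome 2 (75658962 to 75659310), was called in KO replicate 2 with 24 fragments and in the WT replicates with 34 and 20, and its 349 bp were covered by H3K27ac in KO and WT. The other two were called in WT replicate 1 only, at BC024139 with 8 fragments and in Apob with 13.

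Some regions were promoters whose E2f4 peak sat in a gap of H3K4me2. In all, 8 regions (2.11% of the 379), not all of them promoters, had H3K4me2 within 1000 bp on both sides. Of the 8, 5 overlapped H3K27ac. One of those 5, chr10:60373323-60373473, lay 26020 bp from any gene end, and 2 others of the 8 lay 6432 and 4905 bp from an end of Apob. The 8 included all 3 regions in 2 lists that had a low background, each called in both WT libraries. No E2f4 peak of a KO library lay within 3000 bp of those genes' ends shown in the maps. Regions called in WT and in no KO list were 310 of 379 (81.8%) outside and 1062 of 1726 (61.5%) overlapping H3K4me2. The KO lists were also shorter, with 281 and 669 peaks against 1741 and 1033 in WT. A loss of E2f4 at these promoters in KO was not tested. P4hb encodes protein disulfide isomerase, which also serves as a subunit of prolyl 4-hydroxylase. Its region, chr11:120572935-120573270, reached from 17 bp before to 318 bp after the gene start, with summits at 122 and 130 bp into the gene. It held 39 fragments on a background of 1.39 in WT replicate 1 (fold 16.73, −log10 q-value 37.81) and 21 on 1.63 in WT replicate 2 (fold 8.37, −log10 q-value 12.59). It was the one outside peak in the top 25% of its list, at percentile 86.4 in WT replicate 1, against percentile 41.7 in WT replicate 2. H3K4me2 began 121 bp to one side and 154 bp to the other, and H3K27ac covered all 336 bp in KO and in WT.

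Hspa8, the constitutive Hsp70 chaperone, and Khsrp, an RNA-binding protein of mRNA decay and splicing, had the same arrangement. The Hspa8 region, chr9:40800879-40801133, lay 143 bp from the gene end, with 18 fragments in WT replicate 1 and 13 in WT replicate 2, and with H3K4me2 at 121 and 268 bp. H3K27ac covered its 255 bp in both genotypes. The Khsrp region, chr17:57031517-57031804, ended 10 bp before the gene start, with 14 fragments in either WT replicate on backgrounds of 1.29 and 2.44, and with H3K4me2 at 88 and 387 bp. H3K27ac covered 288 bp of it in KO and 14 bp in WT. Vkorc1l1, a paralog of the vitamin K epoxide reductase, was called in WT replicate 1 only, with 14 fragments on 0.742, from 503 to 170 bp before the gene start. H3K27ac covered 334 bp of that region in KO and 0 bp in WT. Gucy1b1, a subunit of soluble guanylate cyclase, was called in WT replicate 2 only, with 15 fragments on 0.95, from 199 to 51 bp before the start. It had H3K4me2 on the side of the gene alone and no H3K27ac in either genotype.

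**Figure D5:**
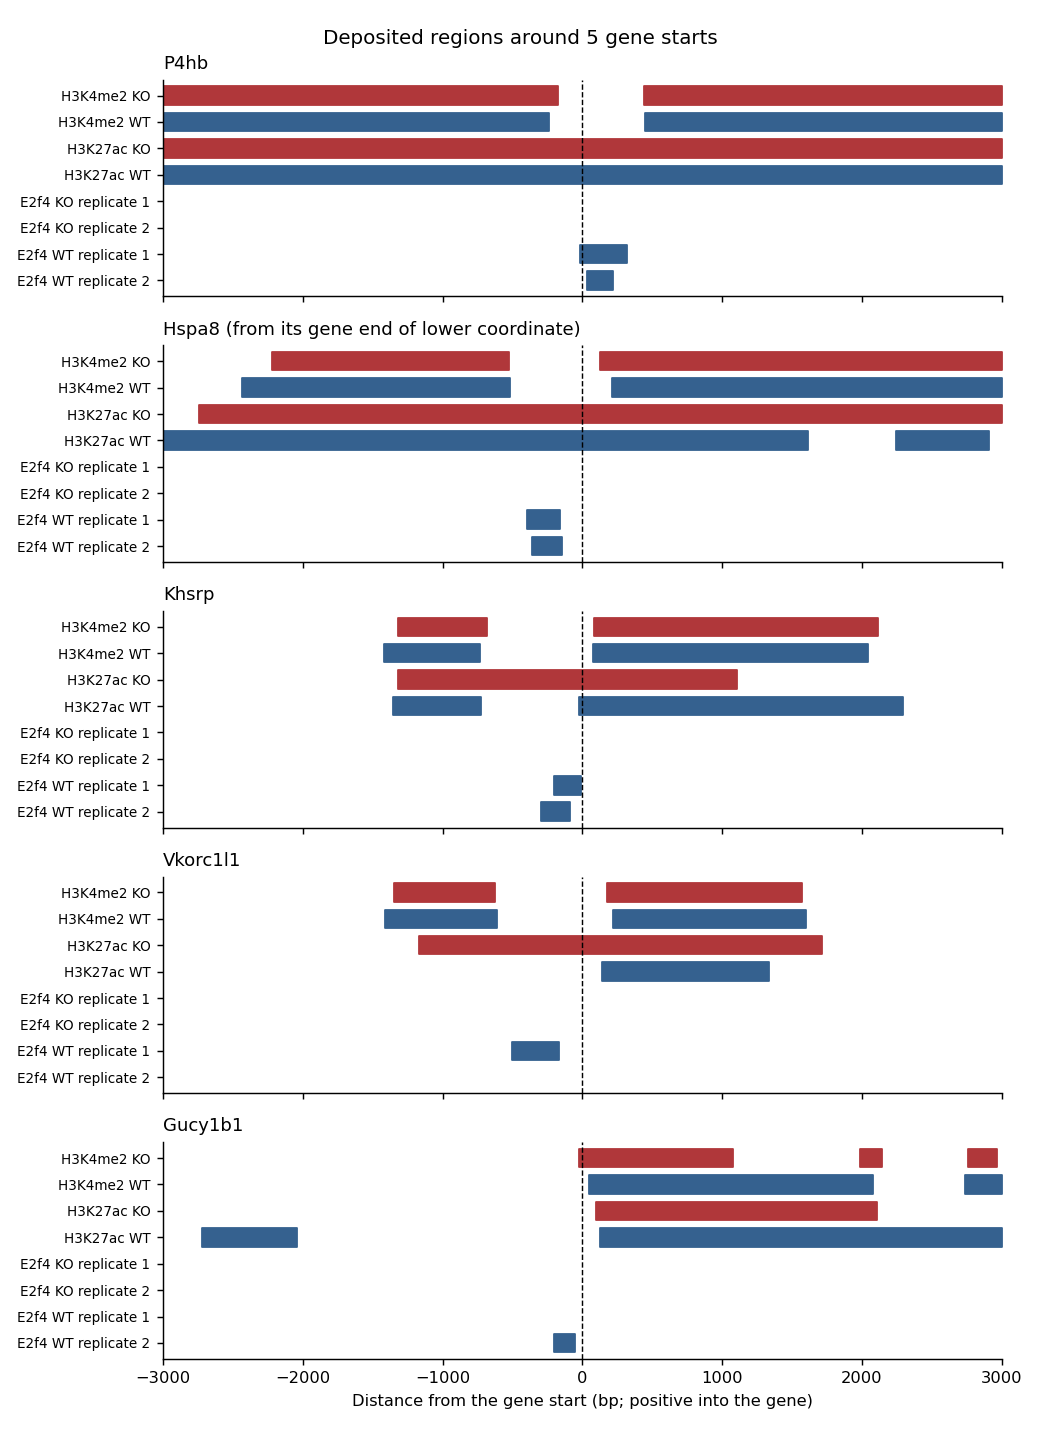
Deposited regions of H3K4me2, H3K27ac and E2f4 within 3000 bp of 5 gene starts (KO red, above WT blue), as distance from the start in bp. Hspa8 is drawn from its gene end of lower coordinate. At P4hb, Hspa8, Khsrp and Vkorc1l1 the E2f4 regions of WT fall between 2 H3K4me2 regions in both genotypes, and at Gucy1b1 beside one.

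The promoter sequences printed above were searched for the 4 E2F letter strings. RefSeq promoters overlapped 6 outside regions, those of P4hb, Khsrp, Vkorc1l1, Gucy1b1, Cuzd1 and the long non-coding RNA Gm39596. The letters occurred in 2 of the 6 (33.3%), against 586 of 1387 promoters overlapped by E2f4 regions inside H3K4me2 (42.2%) and 9.61% of all 31396 promoters on chromosomes 1 to 19. In Khsrp TTCCCGC began 34 bp after the start, on the gene's strand and outside the called region. In Gucy1b1 GCGGGAA, the same letters on the opposite strand, began 138 bp before the start, within the called region. With 6 promoters no share can be set apart from another. The searched P4hb sequence ended before both of its summits, at 122 and 130 bp into the gene. The searched Vkorc1l1 sequence began after its summit, at -406 bp from the start. For both genes most of the called region was not searched, so whether it holds the letters was not tested. CG pairs numbered 31 of the 300 bases in P4hb, 32 in Khsrp and 50 in Vkorc1l1, against 6 in Gucy1b1, 2 in Cuzd1 and 0 in Gm39596. The median was 25 in promoters overlapped inside H3K4me2 and 7 in all promoters.

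In all, 27 regions, among them those of P4hb, Hspa8, Khsrp, Vkorc1l1 and Gucy1b1, had over 10 fragments at a background of at most 10, and 8 of these 27 lay within 1000 bp of a gene end. The strongest of those found in 1 list was chr1:88745401-88745597 of WT replicate 2, with 35 fragments on 1.63 (fold 13.7, −log10 q-value 29.88). It lay 9293 bp from the long non-coding RNA gene Platr5 and 24490 bp from H3K4me2, with no H3K27ac, and was in none of the other 3 lists. It was also the one region in 1 list that had over 15 fragments at a low background. In KO replicate 1 the highest such pileup was 12, in the bodies of Col4a3 (a basement membrane collagen) and C430014B12Rik on chromosome 1. In KO replicate 2 it was 13, reached 17165 bp from Mkrn3 on chromosome 7 and 2101 bp from Tspan15 on chromosome 10.

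Of the cell cycle genes that E2f4 is known to bind, 1 had such a region nearby. Of 20665 protein-coding genes on chromosomes 1 to 19, 96 (0.465%) had an outside region within 10000 bp of an end, and 2452 (11.9%) had an E2f4 region overlapping H3K4me2 there. Of the G2/M and mitosis genes 0 of 59 had an outside region, against 57 that had an overlapping one. DNA repair and checkpoint genes gave 0 of 30 against 26, and E2F, RB and DREAM components 0 of 19 against 16. Of the 54 G1/S and DNA replication genes, 1 had an outside region, against 48 with an overlapping one. It was Pole, the catalytic subunit of DNA polymerase epsilon, with a region in WT replicate 1 at the low −log10 q-value of 1.73, 7898 bp from the gene end. SWI/SNF subunits gave 0 of 25 outside and 9 overlapping. At a background of 0.465%, counts of 0 or 1 in lists of this length do not set them apart from other genes.

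Genes of the germline and of the hepatocyte gave 2 hits each, 5.56% and 8.0% of the lists, against 0.465% of all coding genes. No test was made. Regions overlapping H3K4me2 gave the same 2 lists 5.56% and 8.0%, below the 11.9% of all coding genes. Of 36 germline genes 2 had an outside region and 2 an overlapping one. The outside ones were Spo11, which makes the DNA breaks of meiosis, 2985 bp away in WT replicate 1, and Slc25a31, the ADP/ATP carrier of the testis, 8455 bp away in WT replicate 2. Their −log10 q-values were 4.04 at Spo11 and 1.39 at Slc25a31, the latter close to the lowest deposited for E2f4, 1.33. Of 25 hepatocyte identity genes 2 had an outside region and 2 an overlapping one, and hepatic metabolism genes gave 0 of 36 outside and 2 overlapping. Apob, the main protein of the lipoproteins made in liver, held 2 regions of WT replicate 1, at chr12:8010264-8010407 and chr12:8011670-8011934, each between H3K4me2 regions less than 1000 bp away and neither with H3K27ac. Ahsg, which encodes the plasma protein fetuin-A, had a region of WT replicate 1 at 880 bp from its end, with H3K27ac over its 144 bp in KO and WT. That region lay nearer, at 76 bp, to an end of the long non-coding RNA gene Gm30611. Cyp2j5, a cytochrome P450 that oxidises arachidonic acid, held 3 regions of WT replicate 1 in its body within chr4:96652776-96653798, with 9 to 10 fragments each and no H3K27ac. Of the 379 regions 360 stood alone, with no other member within 50000 bp. There were 3 clusters of at least 3 regions, in Cyp2j5 and at the high-background loci on chromosomes 2 and 14, and 5 clusters of 2.

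The tissue was checked by H3K27ac at marker genes. All 5 hepatocyte markers, among them Alb and Ttr, had H3K27ac within 1000 bp of a gene end in KO and WT, taking the end with more of the mark, with 10005 bp covered in KO and 9203 bp in WT over the list. Endothelial markers had it at 5 of 5 in KO and 5 of 5 in WT (8136 and 9004 bp), macrophage markers at 4 and 4 of 5 (5462 and 6142 bp), stellate cell markers at 3 and 4 (1790 and 4859 bp), lymphocyte markers at 1 and 2 (1086 and 1233 bp), and cholangiocyte markers at 0 and 1 of 5 (0 and 1665 bp). Neuronal markers had 0 bp of H3K27ac in KO and 0 bp in WT. H3K4me2, the mark of the rule, did lie at the neuronal gene Syn1, over 1150 bp in KO and 1131 bp in WT. It differed between genotypes at single markers in either direction, with 1321 bp at Cd3e in WT alone and 808 bp at Clec4f in KO alone. H3K27ac was thus called at genes of endothelium and macrophages beside those of hepatocytes, and the part of these cells in the regions outside H3K4me2 was not tested. None of the 7 marker lists had an outside region within 10000 bp of a gene end.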

How the data were processed

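The series holds 16 ChIP-seq samples, of which 8 immunoprecipitations have 1 deposited peak list each and the 8 inputs were not used here. The submitters' processing notes name build mm10 and, without a role, MACS2 2.0.10.20131216, Bowtie2 2.2.3, HOMER and Picard. The authors deposited, for every peak, a fold (a ratio of signal over background), a −log10 p-value and −log10 q-value, a score and, for E2f4, a summit. The lowest deposited −log10 q-value was 1.33 for E2f4 and 1.0 for the marks. Deposited lists hold no read counts, so depth is unknown.

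Peaks were merged at 1 bp with Python, pandas and numpy, and distances were taken to gene ends of a RefSeq table of assembly GRCm38.p6. For each E2f4 peak, the pileup k and background b were solved on the assumption that fold = (k + 1)/(b + 1) and that p is the Poisson probability of more than k fragments given b. No header, label or note states this formula, and all pileup and background values depend on it. All 3819 peaks gave a k within 0.05 of a whole number, with a largest deviation of 0.0387. This recovery and the pileup classes were chosen after seeing the data, and the scripts were tested on simulated data. Promoter sequences were available for 16457 of 20665 coding genes.

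Genotypes were compared by exact permutation over libraries, and outside with overlapping peaks by exact sign-flips of the 4 within-library differences (scipy). Intervals of shares are exact Clopper-Pearson 95% intervals over regions or peaks, which are not replicates. Replicate numbers gave a pairing only as an alternative. Other alternatives were stricter thresholds, other overlap rules, lists of equal length, other chromosomes and gene sets, and leaving out each library. The members and gene lists were chosen with earlier results of these data known. Regions named are those in 2 lists, the 3 strongest per library, the 3 nearest to and least overlapping H3K4me2, clusters, gene starts and list genes. The further regions described by pileup or acetylation were chosen after their values were seen.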

Additional observations from a re-analysis of the deposited data

Results flagged for a closer look

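E2f4 peaks on the X chromosome and the mitochondrial chromosome were outside the set described, and their values are given here without a test. On the X chromosome 10 of 46 merged regions (21.7%) lay outside H3K4me2, with 3 called in KO replicate 1, 0 in KO replicate 2, 3 in WT replicate 1 and 4 in WT replicate 2, and 0 of the 10 were in 2 lists. The mitochondrial chromosome held 15 merged regions, with 1 and 1 peaks in the KO replicates and 16 and 6 in the WT replicates, and 6 of the 15 were in 2 or more lists. No H3K4me2 region was called there. The peaks had a median fold of 1.4 on a median background of 180 fragments. The 16 regions of high background on chromosomes 1 to 19 had folds of 1.48 to 2.80 on 13.8 to 192 fragments.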

How the results depend on the processing

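The number of regions outside H3K4me2 was 65 with strict E2f4 peaks (those whose −log10 q-value reached 5) and 58 with lists of equal length, against 379, and 116 to 366 when 1 library was left out. Their share of all regions was 20.1% with H3K4me2 regions held to the same strict value, 4.79% with strict E2f4 peaks and 12.6% with lists of equal length, against 18.0%, and 9.77% to 18.1% without 1 library. The share in 2 or more lists was 4.19% with H3K4me2 of WT only, 4.62% with strict E2f4 peaks, 0% with lists of equal length and 0.826% without the regions of high background, an alternative chosen after seeing the data, against 2.11%, and 0.862% to 2.19% without 1 library. The share with H3K27ac was 2.03% with no H3K4me2 within 1000 bp, 10.4% with strict H3K4me2 regions, 8.13% with H3K4me2 of WT only, 7.69% with strict E2f4 peaks, 1.72% with lists of equal length and 1.85% with strict H3K27ac regions, against 4.75%, and 4.31% to 5.50% without 1 library. The share far from genes was 55.4% with strict E2f4 peaks, 79.9% with coding genes only, 78.4% at over 5000 bp and 26.4% at over 50000 bp, against 64.4%, and 63.6% to 64.7% without 1 library. The KO minus WT difference of 0.898 percentage points turned to -0.691 with strict H3K4me2 regions and to -1.82 with strict E2f4 peaks, and ranged from -8.09 to 9.89 without 1 library. Nothing beyond the construction of each setting was tested as a cause. With the replicate numbers as a block the difference was again 0.898 (4.31 for number 1 and -2.51 for number 2, exact sign-flip permutation p = 1, the smallest possible being 0.5), and with 2 pairs the numbers are shared labels only. The 3 planned within-library differences were recorded under fewer settings: each library left out, and the regions of high background left out. Added to these were strict H3K27ac regions for H3K27ac, coding genes only for distance and the deposited fold for strength. In these settings they kept their sign: -94.9 to -89.1 percentage points for H3K27ac, 59.6 to 76.1 for distance and -46.7 to -39.9 percentile points for strength. The exact sign-flip permutation p was 0.125, or 0.25 with 3 libraries, the smallest values each design allows. Their values with strict E2f4 peaks, strict H3K4me2 regions, other overlap rules or lists of equal length are not given here. The ranges without 1 library aside, each share listed above for a changed setting lay outside the 95% interval of the main share. Under the settings not listed for a share, it stayed within that interval. The few fragments behind a peak and the unknown depth limit what can be said of regions called in 1 list.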
